A study of Danio rerio with 24 samples.

Results

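Livers of 3 zebrafish, A+1, A+2 and A+3, held transcripts of egg cells, and the other 3 fish of their genotype, A+4, A+5 and A+6, held few. The members are these 3 of the 6 A+ fish, of 24 fish in all. They were set apart by the levels of zona pellucida genes, buc and zar1 in these same libraries, so each difference between A+1 to A+3 and A+4 to A+6 is a description and carries no test. The genes described are the 13277 of 28210 counted genes with a count above 100 in at least 1 of the 6 fish.

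Liver RNA of 24 fish aged 2 months was sequenced, 6 fish of each of 4 genotypes. A+ fish carried Tg(lfabp:eGFP-T2A-AAT), the wildtype form of human alpha-1-antitrypsin (AAT) behind green fluorescent protein, and Z+ fish carried Tg(lfabp:eGFP-T2A-ZAAT), its misfolding Z variant. A- and Z- fish were the siblings of A+ and Z+ fish that lacked the transgene. Both lines were kept heterozygous by outcrossing to TU wildtype fish, the liver fatty acid binding protein promoter drove the transgene in hepatocytes, and each liver was divided for RNA and protein. The sex of the fish and the sequencing run of each library are not in the labels.

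Counted reads ran between 33898825 and 44715713 per fish over the series, and between 34434573 and 37412160 over the A+ fish. Levels are given as CPM, the counts of a gene scaled to a fixed library size and by the trimmed mean of M values (TMM), which assumes that most genes do not differ. The TMM factor of A+2 was 1.96, and those of the other A+ fish ran between 0.848 and 1.11. A level of 3 counts or fewer in a library was raised to 3 counts before a fold was taken, and a fold against such a level is written as at least that large. CPM is not corrected for gene length, so levels are compared between fish and not between genes. A list of 20 hepatocyte genes took 20.2, 10.6 and 22.5% of counts in A+1, A+2 and A+3, against 23.9, 21 and 23.4% in A+4, A+5 and A+6, so all 6 libraries were liver by their markers, with the lowest share in A+2. The transgene was counted in every A+ fish, at 4621, 1342 and 3191 CPM in A+1, A+2 and A+3 and 4665, 3004 and 3581 CPM in A+4, A+5 and A+6.

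A growing fish oocyte builds a coat of zona pellucida glycoproteins, and it stores messenger RNAs that proteins such as Zar1 and Cpeb1 keep for use by the embryo. Its germ plasm, the material that marks future germ cells, gathers in the Balbiani body, which needs Bucky ball (buc). The cell is arrested in meiosis until hormones release it, and its chromatin is packed with maternal linker histone (h1m). The yolk precursor vitellogenin, by contrast, is made by the female liver in response to oestrogen.

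All 4 egg-cell markers were highest in A+2, lower in A+1 and lower again in A+3, and none of these 3 fish overlapped A+4, A+5 or A+6. The germ plasm organizer buc had 38.2, 439 and 17.3 CPM in A+1, A+2 and A+3, against 0.585, 0.412 and 0.62 CPM in A+4, A+5 and A+6. For zar1, an RNA-binding protein of stored maternal RNA, the levels were 18.8, 297 and 11.7 CPM in A+1, A+2 and A+3 and 0.616, 0.38 and 1.14 CPM in A+4, A+5 and A+6. The egg coat gene zp3b had 61.3, 889 and 35.4 CPM in A+1, A+2 and A+3, against 1.82, 1.24 and 1.76 CPM in A+4, A+5 and A+6. A+3, the lowest of the 3 fish, still exceeded the highest of A+4 to A+6 28-fold in buc, 10.2-fold in zar1 and 19.5-fold in zp3b. The linker histone gene h1m had 30.5, 446 and 20.2 CPM in A+1, A+2 and A+3, against 0.555, 0.665 and 0.848 CPM in A+4, A+5 and A+6, so that A+3 stood 23.8-fold above the highest of the other 3 fish. Genes of this kind set the fish apart, so the gap itself is no finding, and the distance between A+2 and A+3 was not part of the choice. With TMM, A+2 exceeded A+3 25.3-fold in buc, 25.5-fold in zar1, 25.1-fold in zp3b and 22.1-fold in h1m, and these folds would be larger with library totals alone.

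**Figure D1:**
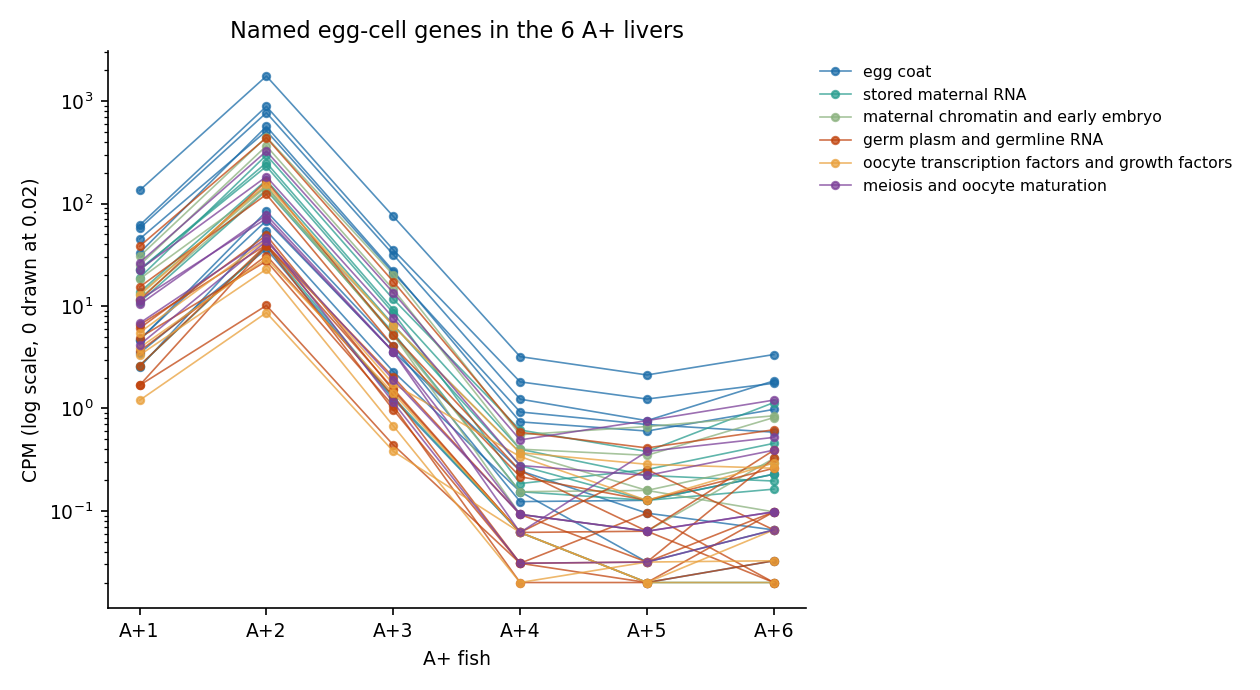
CPM on a log scale (vertical) of the named egg-cell genes in the 6 A+ fish (horizontal), 1 line per gene, coloured by gene list, with 0 drawn at 0.02. The lines peak in A+2, stand lower in A+1 and A+3 and are lowest in A+4, A+5 and A+6, with buc at 38.2, 439 and 17.3 CPM in the first 3 fish and 0.585, 0.412 and 0.62 CPM in the other 3.

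Over all genes, 366 were separated upward, meaning that the lowest of A+1, A+2 and A+3 stood at least 4-fold above the highest of A+4, A+5 and A+6, each level raised to the floor of 3 counts. That was 2.76% of the 13277 genes, and 0 genes (0%) were separated downward. Without the 4-fold limit, 2200 genes (16.6%) were higher without overlap and 1727 (13%) lower. That split depended on scaling: with library totals alone it was 3155 to 542, with DESeq2's size factors 2664 to 1220 and with TMM over the 6 A+ fish 2737 to 1235, and the median gene moved by 0.51 on the log2 scale between TMM and library totals. A+3, the fish with the lowest levels, set the limit, since 377 genes (2.84%) stood 4-fold above A+4 to A+6 in A+3, 914 (6.88%) in A+1 and 2303 (17.3%) in A+2. Without A+3 the separated genes came to 856, and leaving out any 1 of the 6 fish left 2 to 34 genes separated downward. The genes just inside the limit were necap1, cdc7 and tdrd5, with 4.05-, 4.06- and 4.06-fold between the nearest fish, and those just outside were ect2, cenpo and blm, with 3.99-, 3.92- and 3.91-fold.

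Together the 366 genes took 0.546, 11.8 and 0.222% of all counts in A+1, A+2 and A+3, against 0.00962, 0.00769 and 0.0112% in A+4, A+5 and A+6. In TMM-scaled units their sum was 4902, 60208 and 2417 CPM in A+1, A+2 and A+3, against 108, 83.9 and 133 CPM in A+4, A+5 and A+6. A+2 was the highest of all 24 fish in 366 of the 366 genes, and the order A+2, A+1, A+3 held in 358. In the other 8, A+3 stood above A+1. Of the 366, 217 had a gene symbol and 149 a clone or locus name. Among the clone-named genes, zgc:152652 had 150.3, 1883 and 75.9 CPM in A+1, A+2 and A+3, against 2.53, 1.9 and 3.62 CPM in A+4, A+5 and A+6, and si:dkeyp-50f7.2 had 99.5, 1605 and 56.6 CPM in A+1, A+2 and A+3 and 2.1, 1.49 and 2.51 CPM in A+4, A+5 and A+6.

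Among separated genes with a symbol, the 15 with the largest difference of mean log2 CPM lay between 6.90 for clcn2c, a chloride channel gene, and 8.23 for cpdb, a carboxypeptidase gene. The level of cpdb was 9.1, 80.6 and 3.03 CPM in A+1, A+2 and A+3 and 0.0308, 0 and 0.0326 CPM in A+4, A+5 and A+6. For zglp1, a GATA-like zinc finger gene known from mouse germ cells, it was 7.63, 72.7 and 2.41 CPM in A+1, A+2 and A+3 and 0.0616, 0.0634 and 0 CPM in A+4, A+5 and A+6. These 2 genes had at least 31-fold and at least 24.6-fold gaps between the nearest fish. The lipoprotein receptor gene lrp13, known from the ovary of other fishes, had 40.4, 431 and 16.3 CPM in A+1, A+2 and A+3, against 0.339, 0.57 and 0.652 CPM in A+4, A+5 and A+6. An oocyte lamin gene, lmnl3, had 7.87, 59.3 and 2.56 CPM in A+1, A+2 and A+3, against 0.154, 0 and 0.0978 CPM in A+4, A+5 and A+6. The cation exchanger gene cax1 had 9.7, 63.4 and 2.56 CPM in A+1, A+2 and A+3, against 0.0616, 0.0634 and 0.0652 CPM in A+4, A+5 and A+6. In each of these 5 genes A+4, A+5 and A+6 were below 1 CPM. The rest of the 15 were dazl, org, elavl2, fbxo5, cpeb1b and ddx4, described with their lists, and alg13, tceb3l, osbpl7 and clcn2c, whose differences of mean log2 CPM ran between 6.90 and 7.09.

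In the egg coat list, 15 of the 17 zona pellucida genes counted passed the minimum of 100 counts, 15 of the 15 were higher in A+1 to A+3 without overlap and 14 were separated. Their median difference was 6.28 on the log2 scale, beside -0.01 over all genes. A gene could pass the minimum through 1 fish in which it was high, so the 15 of 15 was favoured by the filter. The gene zp3.2 had 134, 1755 and 75 CPM in A+1, A+2 and A+3, against 3.2, 2.12 and 3.36 CPM in A+4, A+5 and A+6. The oocyte-specific zpcx had 32.9, 565 and 22 CPM in A+1, A+2 and A+3 and 0.74, 0.602 and 0.978 CPM in A+4, A+5 and A+6. Both kept the order A+2, A+1, A+3 with 22.3-fold and 22.5-fold between the nearest fish. The zp2 relative zp2l1 had 45, 511 and 21.1 CPM in A+1, A+2 and A+3, against 0.924, 0.697 and 0.587 CPM in A+4, A+5 and A+6. For zp3a.2 the levels were 57.3, 769.9 and 31.8 CPM in A+1, A+2 and A+3 and 1.23, 0.761 and 1.86 CPM in A+4, A+5 and A+6. The member that missed the 4-fold limit, zp2l2, had 3.46, 29.9 and 1.32 CPM in A+1, A+2 and A+3, against 0.339, 0.349 and 0.163 CPM in A+4, A+5 and A+6, a gap of 3.8-fold. Zona pellucida genes are near-identical copies in part, so reads may have been split between zp2 or zp3 members, and the level of a single member is uncertain. In RefSeq's gene order for assembly GRCz12tu, zp2.2, zp2.3, zp2.6, zp2.1 and zp2.5 stood in 1 run of neighbouring separated genes, zp3a.1 with zp3a.2 and also zp3d.1 with zp3d.2 were neighbours, and another run of 6 began with zgc:152652. Only 77.9% of the separated genes matched that annotation by symbol, so no share of neighbours is given.

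Germ plasm and germline RNA genes were higher without overlap in 23 of 28 above the minimum, 17 were separated, and 1, dazap1, was lower with each scaling other than library totals. The median difference was 5.74. The RNA helicase gene ddx4 (vasa), a marker of germ cells, had 6.53, 39.5 and 1.56 CPM in A+1, A+2 and A+3, against 0.0616, 0.0634 and 0 CPM in A+4, A+5 and A+6. Another germ cell gene, dazl, which encodes an RNA-binding protein, had 4.9, 27.4 and 1.06 CPM in A+1, A+2 and A+3 and 0, 0 and 0.0326 CPM in A+4, A+5 and A+6. In both, the 3 other fish were at 0 to 2 counts, and the gap to A+3 was at least 15.9-fold in ddx4 and at least 10.8-fold in dazl. The buc relative buc2l had 11.4, 165 and 5.23 CPM in A+1, A+2 and A+3, against 0.247, 0.0634 and 0.391 CPM in A+4, A+5 and A+6. The germ-cell carbonic anhydrase gene ca15b had 15.3, 123 and 4.06 CPM in A+1, A+2 and A+3 and 0.216, 0.127 and 0.261 CPM in A+4, A+5 and A+6. Piwi pathway genes, which guard the germline against transposons, followed: piwil1 had 1.68, 38.8 and 0.97 CPM in A+1, A+2 and A+3, against 0.0308, 0.0951 and 0 CPM in A+4, A+5 and A+6, and tdrd1, which encodes a Tudor scaffold of that pathway, had 4.58, 78.4 and 2.47 CPM in A+1, A+2 and A+3, against 0.185, 0.0634 and 0.163 CPM in A+4, A+5 and A+6. The RNA-binding gene celf1 had 36.5, 41.9 and 37.6 CPM in A+1, A+2 and A+3 and 33.4, 49.6 and 38.9 CPM in A+4, A+5 and A+6, where the fish overlapped. The lower gene, dazap1, had 7.51, 3.09 and 7.55 CPM in A+1, A+2 and A+3, against 9.92, 12.6 and 8.67 CPM in A+4, A+5 and A+6.

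Of the genes for proteins that store and translate maternal RNA, 13 of 22 were higher without overlap, 12 were separated and 1, gtf3aa, was lower with TMM and overlapped with the other 3 scalings, with a median difference of 6.08. The polyadenylation element binder cpeb1b had 22.2, 250.5 and 9.23 CPM in A+1, A+2 and A+3, against 0.401, 0.222 and 0.196 CPM in A+4, A+5 and A+6. The gene pabpc1l, which encodes a poly(A)-binding protein of eggs, had 13.6, 169 and 6.56 CPM in A+1, A+2 and A+3 and 0.277, 0.127 and 0.228 CPM in A+4, A+5 and A+6. The zar1 relative zar1l had 22.8, 231 and 8.55 CPM in A+1, A+2 and A+3, against 0.185, 0.254 and 0.457 CPM in A+4, A+5 and A+6, and btg4, which directs the removal of maternal RNA, had 10.8, 134 and 5.5 CPM in A+1, A+2 and A+3, against 0.154, 0.127 and 0.163 CPM in A+4, A+5 and A+6. The gap of btg4 was the widest of these 4 genes, 33.7-fold between the nearest fish. The RNA-binding gene elavl2 had 2.62, 38.3 and 1.29 CPM in A+1, A+2 and A+3 and 0.0616, 0 and 0 CPM in A+4, A+5 and A+6. The pair of 5S rRNA transcription factor genes went apart: gtf3ab had 14, 204 and 8.61 CPM in A+1, A+2 and A+3, against 0.277, 0.317 and 0.424 CPM in A+4, A+5 and A+6, and gtf3aa had 21.5, 13.1 and 19.9 CPM in A+1, A+2 and A+3, against 22.1, 29 and 29.6 CPM in A+4, A+5 and A+6. The fish overlapped in ybx1, which encodes a Y-box protein, with 1232, 439 and 879 CPM in A+1, A+2 and A+3 and 896, 1099 and 938 CPM in A+4, A+5 and A+6.

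Transcription factors and growth factors of the oocyte were higher without overlap in 6 of 6 members above the minimum, with 4 separated and a median difference of 5.78. Members could pass the minimum through A+1 to A+3 alone, which favours such a count. As an example, taf4b had 50, 608 and 13 counts in A+1, A+2 and A+3, against 2, 0 and 0 in A+4, A+5 and A+6. The gene figla, which switches on zona pellucida genes, had 3.31, 22.9 and 0.676 CPM in A+1, A+2 and A+3, against 0, 0.0317 and 0.0326 CPM in A+4, A+5 and A+6. The homeobox gene lhx8a, needed for early oocyte growth, had 3.91, 29.1 and 1.41 CPM in A+1, A+2 and A+3 and 0.0616, 0 and 0.0652 CPM in A+4, A+5 and A+6. The growth factor gene gdf3, whose maternal product acts in the early embryo, had 12.7, 154 and 6.38 CPM in A+1, A+2 and A+3, against 0.37, 0.285 and 0.261 CPM in A+4, A+5 and A+6. These levels kept the order of the fish seen in the markers. The growth factor gene bmp15, known in ovarian follicles, had 5.5, 44.3 and 1.73 CPM in A+1, A+2 and A+3, against 0.339, 0.127 and 0.293 CPM in A+4, A+5 and A+6. The members taf4b and gdf9 missed the 4-fold limit, with at least 3.91-fold in taf4b and 3.82-fold in gdf9 between the nearest fish.

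Of 22 meiosis and maturation genes above the minimum, 17 were higher without overlap and 10 were separated, with a median difference of 4.39. The 10 were mos, wee2, ccnb1, ccnb2, cdc25b, cdc20, aurka, plk1, fbxo5 and fbxo43, which act in meiotic arrest, maturation and division. For fbxo5, which encodes an inhibitor of the anaphase-promoting complex, levels were 10.3, 77.2 and 3.59 CPM in A+1, A+2 and A+3 and 0.0924, 0.0634 and 0.0978 CPM in A+4, A+5 and A+6. The B-type cyclin gene ccnb1 had 26.5, 324 and 13.5 CPM in A+1, A+2 and A+3, against 0.493, 0.761 and 1.21 CPM in A+4, A+5 and A+6, and ccnb2 had 22.7, 183 and 7.67 CPM in A+1, A+2 and A+3 and 0.277, 0.222 and 0.391 CPM in A+4, A+5 and A+6. The arrest kinase gene mos had 4.18, 42.9 and 1.91 CPM in A+1, A+2 and A+3, against 0.0924, 0.0634 and 0.0978 CPM in A+4, A+5 and A+6. The nearest gaps of these 4 genes ran between 11.2-fold and at least 36.7-fold. Genes of early prophase were near the floor in the A+ fish other than A+2. For sycp1, levels were 0.024, 0.283 and 0 CPM in A+1, A+2 and A+3 and 0, 0 and 0 CPM in A+4, A+5 and A+6. Another part of the synaptonemal complex, sycp3, had 0.096, 0.779 and 0.0882 CPM in A+1, A+2 and A+3 and 0.0924, 0 and 0.13 CPM in A+4, A+5 and A+6. In both, A+2 was the highest of the 6 fish, above its floor of 0.0425 CPM, and neither passed the minimum of 100 counts. The recombinase gene dmc1 had 0, 0.0425 and 0 CPM in A+1, A+2 and A+3 and 0, 0 and 0 CPM in A+4, A+5 and A+6.

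Maternal chromatin and early embryo genes were higher without overlap in 14 of 22 and lower in 1 (npm1a), with 8 separated and a median difference of 3.90. The oogenesis-related gene org had 18.3, 147 and 5.23 CPM in A+1, A+2 and A+3, against 0.0924, 0.0634 and 0.326 CPM in A+4, A+5 and A+6. The maternal nucleoplasmin gene npm2b had 11.8, 137 and 6.47 CPM in A+1, A+2 and A+3 and 0.37, 0.158 and 0.0978 CPM in A+4, A+5 and A+6, and its widely expressed relative npm1a had 545, 272 and 518 CPM in A+1, A+2 and A+3, against 684, 869.6 and 842 CPM in A+4, A+5 and A+6. The pluripotency factor gene nanog had 13.2, 146 and 5.23 CPM in A+1, A+2 and A+3, against 0.154, 0.158 and 0.293 CPM in A+4, A+5 and A+6. The claudin gene cldnd, expressed in eggs, had 25, 365 and 14.5 CPM in A+1, A+2 and A+3 and 0.401, 0.349 and 0.815 CPM in A+4, A+5 and A+6. The maintenance DNA methyltransferase gene dnmt1, higher without overlap but not separated, had 32.7, 209 and 31.6 CPM in A+1, A+2 and A+3, against 19.5, 4.44 and 25.3 CPM in A+4, A+5 and A+6 (1.25-fold between the nearest fish). Over the 6 egg-cell lists, 88 of 115 genes above the minimum were higher without overlap (16.6% of all genes), 3 were lower (13% of all genes; 1 with library totals, 2 with the other scalings) and 65 were separated (2.76% of all genes). Both the lists and the fish were chosen with these levels known, and genes could pass the minimum through A+1 to A+3 alone. The counts therefore describe the programme and are not support for it.

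The ratio between the 3 fish varied from gene to gene. A+2 exceeded A+3 by a median of 24.5-fold over the 366 genes, with an SD of 0.34 on the log2 scale beside a median counting error of 0.17, and 337 of the genes lay within 0.5 of the median log2 ratio. A+2 exceeded A+1 by a median of 10.3-fold with an SD of 0.61 beside a counting error of 0.10, and 214 genes lay within 0.5. The middle 80% of genes ran from 19- to 30.2-fold over A+3 and from 6.05- to 15.97-fold over A+1. The spread was wider for A+1 than for A+3. The size of these folds rests on the scaling. TMM factors were 1.11, 1.96 and 0.918 in A+1, A+2 and A+3, so with library totals alone the excess of A+2 would be larger over both fish. In buc, unscaled counts were 1593, 31034 and 590 in A+1, A+2 and A+3. Counting error leaves out variation between fish, and in most separated genes A+3 was the fish that met the 4-fold limit, which bounds its values, so the 2 spreads are given as descriptions.

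The median excess of A+2 over A+1 was 14-fold for separated egg coat genes, 12-fold for maternal chromatin genes and 11.8-fold for stored maternal RNA genes, against 8.60-fold for germ plasm genes, 7.74-fold for oocyte transcription and growth factors and 7.55-fold for meiosis genes. The median excess of A+2 over A+3 stayed between 23.9- and 27-fold in the same 6 lists. Single genes crossed these medians, since buc was 11.5-fold and buc2l 14.5-fold higher in A+2 than in A+1, above the 10.3-fold median over all separated genes. At the low end, dazl was 5.6-fold and ddx4 6.05-fold higher in A+2 than in A+1. At the high end, zp2.6 was 21.6-fold and piwil1 23.1-fold higher. In its list of 17 separated genes piwil1 had the highest value of both ratios, and it was 40-fold higher in A+2 than in A+3. Lists of 4 to 17 genes lie behind these medians, and 1 fish stands on each side, so no error between fish can be given.

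Genes with low A+2 to A+1 ratios outside the lists, picked after their values were seen, included cell division genes. The recombination gene rad54b had 2.78, 10.2 and 0.441 CPM in A+1, A+2 and A+3 and 0.0616, 0 and 0.0652 CPM in A+4, A+5 and A+6. The condensin gene ncaph had 7.03, 34 and 1.32 CPM in A+1, A+2 and A+3, against 0.308, 0.158 and 0.293 CPM in A+4, A+5 and A+6, and cenpe, which encodes a kinetochore motor, had 9, 47.1 and 1.85 CPM in A+1, A+2 and A+3 and 0.185, 0.127 and 0.391 CPM in A+4, A+5 and A+6. In this order they gave log2 ratios of A+2 to A+1 of 1.87, 2.27 and 2.39, against a median of 3.36. The farthest gene on the other side was zgc:173545, with 2.69, 237 and 9.79 CPM in A+1, A+2 and A+3, against 0.308, 0.317 and 0.489 CPM in A+4, A+5 and A+6, where A+3 exceeded A+1. The gene si:ch211-266k8.4 had the smallest excess of A+2 over both A+1 and A+3, with 5.38, 13.1 and 4.62 CPM in A+1, A+2 and A+3, against 0.154, 0.19 and 0.326 CPM in A+4, A+5 and A+6.

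**Figure D2:**
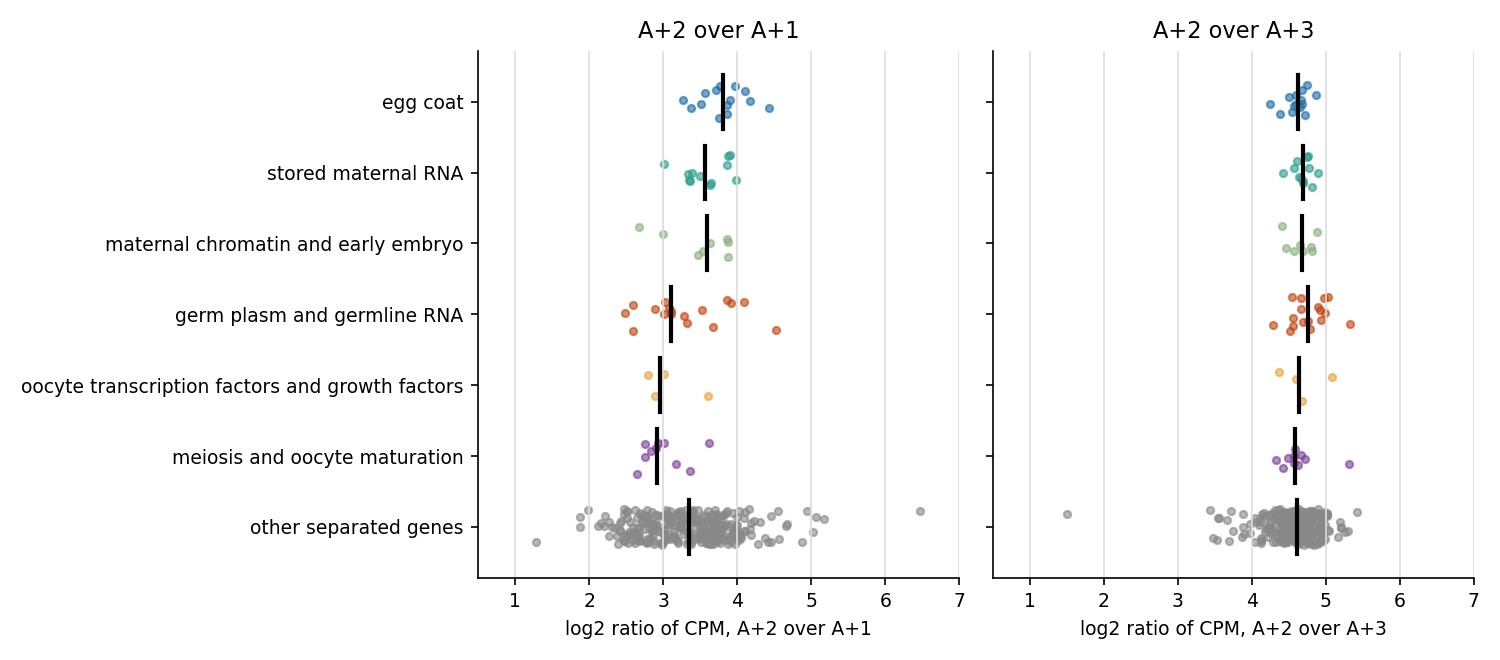
Log2 ratio of CPM between A+2 and A+1 (left) and between A+2 and A+3 (right) for each separated gene (points, spread vertically for visibility), in rows by gene list, with black bars at the medians. The points gather near 4.61 in the right panel for every list, and in the left panel their medians run from 3.81 for the egg coat to 2.92 for meiosis genes.

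Follicle cells, which surround the oocyte and make steroids for it, were represented by few counts. Of 29 follicle genes counted, 9 passed the minimum, 3 were higher without overlap (16.6% of all genes) and 1 was separated (2.76% of all genes), with a median difference of 0.13. The separated one, the steroid 17-hydroxylase gene cyp17a1, had 1.18, 16 and 0.911 CPM in A+1, A+2 and A+3, against 0.0308, 0.0634 and 0 CPM in A+4, A+5 and A+6. The 2 others were hsd3b2, with 2.16, 12.7 and 0.323 CPM in A+1, A+2 and A+3 and 0, 0.0634 and 0 CPM in A+4, A+5 and A+6, and hsd17b1, with 1.27, 2.12 and 0.147 CPM in A+1, A+2 and A+3 and 0, 0.127 and 0.0326 CPM in A+4, A+5 and A+6. All 3 encode steroid enzymes, and A+2 exceeded A+1 13.6-fold in cyp17a1, 5.89-fold in hsd3b2 and 1.67-fold in hsd17b1. The defining genes were scarce: aromatase (cyp19a1a) had 19, 62 and 2 counts in A+1, A+2 and A+3, against 0 counts in A+4, A+5 and A+6. For the ovarian forkhead gene foxl2b there were 30, 62 and 2 counts, again against 0 in the other 3 fish. In 6 follicle genes with 0 counts in A+4 to A+6 (cyp19a1a, foxl2a, foxl2b, fshr, hsd3b1 and nr5a1a, picked after their counts were seen), the counts summed to 84, 216 and 5 in A+1, A+2 and A+3. The follicle list as a whole summed to 144, 97.3 and 129.7 CPM in A+1, A+2 and A+3 and 92.6, 150.04 and 100.05 CPM in A+4, A+5 and A+6, which overlap. Its members esr2b and nr5a2, detected in all 6 fish, overlapped too, and esr2b had 73.7, 22.3 and 65.8 CPM in A+1, A+2 and A+3 and 34.4, 81.2 and 33.2 CPM in A+4, A+5 and A+6.

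Testis and sperm genes were few. Of 21 counted, 4 passed the minimum, 2 (spata18 and odf2a) were higher without overlap (16.6% of all genes) and 1, spata18, was separated (2.76% of all genes), with 1.46, 11.5 and 0.559 CPM in A+1, A+2 and A+3, against 0, 0.0951 and 0.0978 CPM in A+4, A+5 and A+6. In odf2a, which encodes a centriole and tail fibre protein, levels were 0.6, 1.91 and 0.382 CPM in A+1, A+2 and A+3 and 0.154, 0.19 and 0.228 CPM in A+4, A+5 and A+6. Summed over the list, the fish overlapped, at 119, 62.4 and 131 CPM in A+1, A+2 and A+3 and 81.8, 133 and 108 CPM in A+4, A+5 and A+6.

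Vitellogenin and oestrogen response genes (7 vitellogenin genes and the oestrogen receptor gene esr1) took 0.541, 1.29 and 0.0368% of counts in A+1, A+2 and A+3, against 0.0129, 0.106 and 0.0203% in A+4, A+5 and A+6. The yolk precursor gene vtg1 had 2688, 4111 and 223 CPM in A+1, A+2 and A+3, against 75.1, 773 and 123 CPM in A+4, A+5 and A+6, so A+5 stood above A+3 and the fish overlapped. Of the 8 genes, 2 (vtg7 and esr1) were higher without overlap (16.6% of all genes) and 0 were separated (2.76% of all genes). The median difference was 2.00 on the log2 scale, between 0.91 and 3.51, so all 8 were higher on average, with A+2 and A+1 the highest in the summed share. The receptor esr1 had 8.23, 3.17 and 3.26 CPM in A+1, A+2 and A+3 and 2.34, 2.09 and 1.3 CPM in A+4, A+5 and A+6. Outside the A+ fish, vitellogenin genes took 51.6% of counts in Z+5 and 49.2% in Z-2, whose egg coat genes summed to 4.21 and 0.682 CPM.

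Other cell types also moved among the 6 fish, and their part in the result was not tested. Exocrine pancreas genes, 18 of 18 above the minimum, summed to 35173, 423 and 1524 CPM in A+1, A+2 and A+3 and 4721, 1255 and 125 CPM in A+4, A+5 and A+6, with A+1 far above the rest and 0 genes without overlap. Intestine genes summed to 618, 541 and 1029 CPM in A+1, A+2 and A+3 and 1395, 5730.0 and 1526 CPM in A+4, A+5 and A+6, where A+5 was high, and its defining gene cdx1b was at 0.024, 0.142 and 0 CPM in A+1, A+2 and A+3 and 0, 5.93 and 0.946 CPM in A+4, A+5 and A+6. Among the 6 fish, pancreas RNA was highest in A+1 and egg-cell RNA in A+2, and both carried egg-cell transcripts. How the 2 kinds of RNA relate was not tested. Erythrocyte genes summed to 304, 142 and 392 CPM in A+1, A+2 and A+3 and 889, 495 and 439 CPM in A+4, A+5 and A+6, where A+3 came near A+6. Leukocyte genes summed to 212, 67.8 and 111 CPM in A+1, A+2 and A+3 and 229, 225 and 219 CPM in A+4, A+5 and A+6. Of these genes, 4 of 6 erythrocyte and 5 of 9 leukocyte members were lower without overlap (13% of all genes) with TMM, 1 and 1 with library totals, and 3 and 3 with the other scalings. The neutrophil peroxidase gene mpx went against its list, with 0.672, 30.6 and 1.09 CPM in A+1, A+2 and A+3 and 3.85, 0.792 and 0.815 CPM in A+4, A+5 and A+6.

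Hepatocyte genes were lower without overlap in 6 of 20 (13% of all genes) with TMM, in 5 with library totals and in 4 and 3 with the other scalings, and with library totals 1 was higher. With TMM, A+2 was the lowest of the 6 fish in 20 of the 20. The transferrin gene tfa had 41715, 13509.6 and 57095 CPM in A+1, A+2 and A+3 and 65921, 51103 and 62974 CPM in A+4, A+5 and A+6, and the liver fatty acid binding protein gene fabp10a, whose promoter drives the transgene, had 26808, 5747 and 23421 CPM in A+1, A+2 and A+3 and 47769.9, 21709 and 30389 CPM in A+4, A+5 and A+6. A+3 lay within the levels of A+4 to A+6 in both, and A+1 did in fabp10a. Cholesterol synthesis genes were lower without overlap in 11 of 22 (13% of all genes) with TMM, in 6 with library totals and in 10 with each of the other scalings. Of all 13277 genes, 1727 were lower without overlap with TMM and 542 with library totals. With DESeq2's size factors it was 1220, and with TMM over the 6 A+ fish 1235. The gene hsd17b7, which acts late in the pathway, was lower with each scaling and had 24.6, 1.73 and 15.9 CPM in A+1, A+2 and A+3, against 84.7, 72.8 and 35.9 CPM in A+4, A+5 and A+6. The prenyl synthase gene fdps, lower without overlap only with TMM, had 104, 14.6 and 39 CPM in A+1, A+2 and A+3, against 359.95, 435 and 109 CPM in A+4, A+5 and A+6. In both genes A+6 lay below A+4 and A+5. In a bulk liver library, fewer cells of a type and less RNA per cell cannot be told apart.

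With a limit of 2-fold between the nearest fish, 41 genes (0.309%) were lower in A+1 to A+3 (50 to 219 without any 1 fish), and 8 of them were lower by that limit under each of 4 scalings. The 8 were picked after their values were seen. The cytokine signalling inhibitor gene socs3a had 3.58, 3.99 and 9.99 CPM in A+1, A+2 and A+3, against 37, 64.8 and 70.9 CPM in A+4, A+5 and A+6. The stress-response gene gadd45ba had 16.1, 24.9 and 42.4 CPM in A+1, A+2 and A+3 and 122, 193 and 164 CPM in A+4, A+5 and A+6, and the AP-1 factor gene junbb had 14.5, 7.43 and 15.5 CPM in A+1, A+2 and A+3, against 39, 74.8 and 50 CPM in A+4, A+5 and A+6. In each of these, as the limit requires, the 3 fish with egg-cell transcripts lay below the other 3. The cytochrome P450 gene cyp2x9 had 80.8, 18.8 and 54.8 CPM in A+1, A+2 and A+3, against 234, 303 and 273 CPM in A+4, A+5 and A+6, and anxa2a, an annexin gene, had 6.7, 3.75 and 4.35 CPM in A+1, A+2 and A+3 and 18.2, 17.9 and 25.9 CPM in A+4, A+5 and A+6. The rest were the water channel gene aqp1a.1, the small GTPase gene arl4ab and the chemokine receptor gene ccr9a, with differences of -1.91, -2.01 and -2.84 in mean log2 CPM. Outside the A+ fish, cyp2x9 ran between 37 and 98.3 CPM in A- fish, below each of A+4 to A+6. For socs3a, A- fish ran between 10.2 and 33.8 CPM, above A+1, A+2 and A+3 and below A+4, A+5 and A+6. A- fish ran between 11.6 and 36.4 CPM in junbb and between 41.3 and 79.4 CPM in gadd45ba, below each of A+4 to A+6. In anxa2a, aqp1a.1 and arl4ab, by contrast, each A- fish stood above A+1 to A+3. In ccr9a, A- fish ran between 0.486 and 12.9 CPM.

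**Figure D3:**
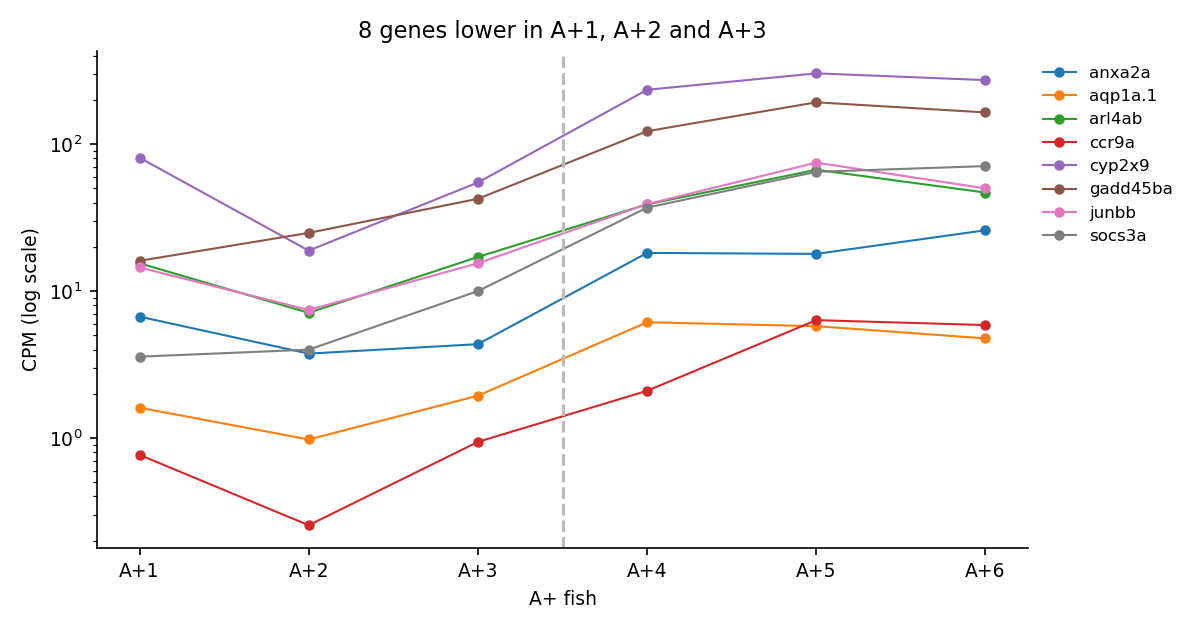
CPM on a log scale (vertical) of the 8 genes at least 2-fold lower in A+1, A+2 and A+3 (left of the dashed line) than in A+4, A+5 and A+6 (right of it) under each of 4 scalings, 1 line per gene. In socs3a the 3 left points are 3.58, 3.99 and 9.99 CPM and the 3 right points 37, 64.8 and 70.9 CPM.

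The 18 fish of other genotypes took no part in the choice, and 3 of them carried the same genes at lower levels. Z-5 held 305 of the 366 genes (83.3%) at least 4-fold above the highest of A+4 to A+6, beside 3.4% of all genes. Z+3 held 240 (65.6%), beside 2.3% of all genes, and Z-3 held 51 (13.9%), beside 0.904%. A-6 held 31 (8.47%), beside 2.38% of all genes, and A-2 held 27 (7.38%), beside 0.904%. A-4 held 16 (4.37%), beside 0.535%, and Z+4 held 15 (4.10%), beside 0.987%. The 366 genes were chosen for low levels in A+4 to A+6, the same fish that set this limit. That choice favours shares above those of all genes, and each of the 18 fish exceeded its share of all genes. Even Z-6, with the lowest sum of the 366 genes (47.9 CPM), held 2.19%, beside 0.738%. The shares of all genes are therefore no neutral background, and these percentages are descriptions. In A-6 the 366 genes summed to 91.5 CPM, below A+6. Its buc, zar1, zp3b and h1m levels were 0.141, 0.0882, 0.141 and 0.0706 CPM, each below A+4, A+5 and A+6. The sum of the 366 was 1858 CPM in Z-5, 1228 CPM in Z+3 and 396 CPM in Z-3, and between 47.9 and 195 CPM in the remaining 15 fish of the 18. The highest A- fish, A-4, summed to 195 CPM, beside 133 CPM in A+6. The markers buc, zar1 and zp3b gave the same order, and h1m did not. In Z-5, Z+3 and Z-3, buc had 14.6, 10.2 and 2.72 CPM and zp3b 27.5, 24 and 6.29 CPM. In the same fish zar1 had 9.3, 8.44 and 2.5 CPM, and h1m had 16.5, 18.4 and 3.86 CPM. Over the separated genes with at least 10 counts in the Z fish, which leaves out its lowest genes, Z-5 stood at a median of 0.811 of A+3 (SD 0.52 on the log2 scale, 351 genes), Z+3 at 0.574 (SD 0.75, 320 genes) and Z-3 at 0.197 (SD 0.78, 240 genes). Sums of 396 CPM or more, up to 60208 CPM, thus appeared in fish with and without a transgene, in both Z groups and in A+. A-6, A-2, A-4 and Z+4 held part of the genes at lower sums, between 87.9 and 195 CPM, beside 83.9 to 133 CPM in A+4 to A+6.

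**Figure D4:**
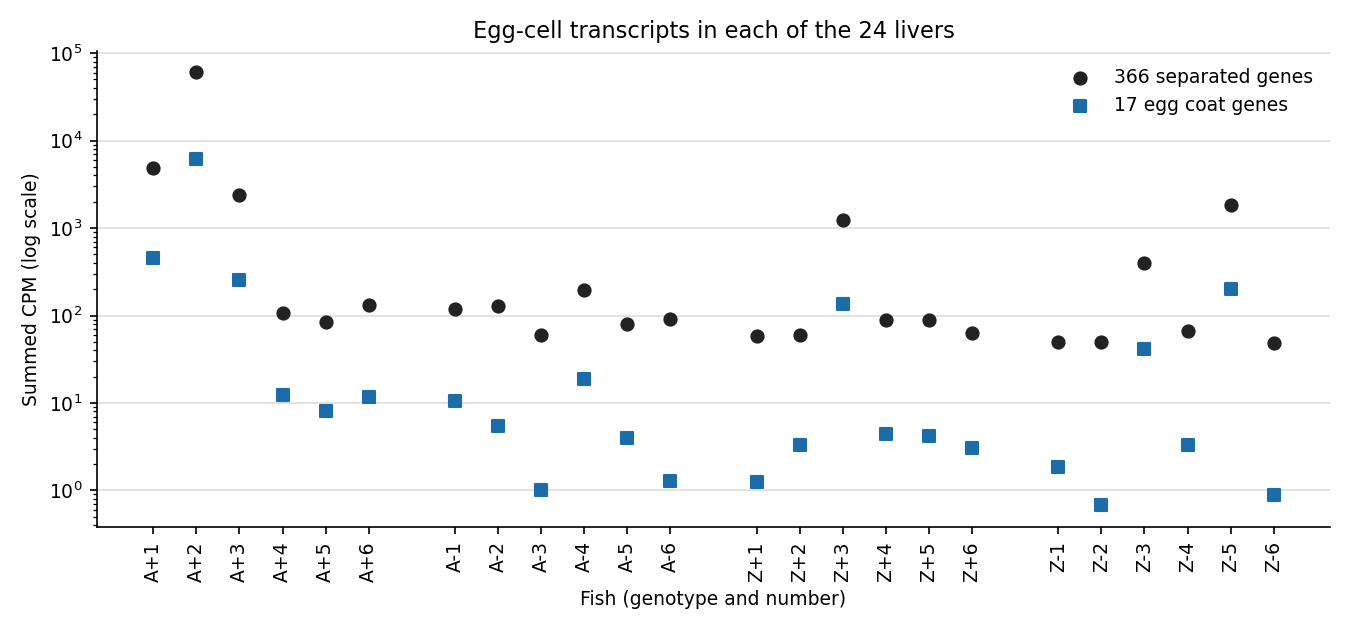
Summed CPM on a log scale (vertical) of the 366 separated genes (circles) and the 17 egg coat genes (squares) in each of 24 fish (horizontal), by genotype. A+2, A+1 and A+3 are the highest, followed by Z-5, Z+3 and Z-3, and the circles of the other 18 fish lie between 47.9 and 195 CPM.

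The 3 fish weighed on the genotype comparisons that include A+. With all 24 fish, 45 of 74 egg-cell list genes tested were higher in A+ than in A- and 0 lower (52 with an unadjusted p under 0.05, 48 and 0 with DESeq2; edgeR's quasi-likelihood test, two-sided, Benjamini-Hochberg adjusted p under 0.05), beside 5.3% of all 11801 genes higher and 4.83% lower. Fish of this comparison include the 3 chosen by these genes, so the count is not independent of the choice, and 28 of the 74 genes passed the count filter only with those fish. For buc, 1 of the genes that set the fish apart, A- fish lay between 0.0469 and 1.03 CPM. A+1, A+2 and A+3 were above all 6 A- fish, and A+4, A+5 and A+6 lay within their range. Without A+1, A+2 and A+3, 1 of 46 list genes was higher and 0 lower (8 with an unadjusted p under 0.05; DESeq2 was not run on this set), beside 2.35% and 2.27% of 11390 genes. That gene was tet3, a DNA demethylase gene of the maternal chromatin list, at a log2 fold change of 0.97 ± 0.23 (SE, edgeR adjusted p = 0.020). The A+ fish left were those set apart by few egg-cell transcripts, and the A+ group was smaller. The fall in list genes called thus follows from the choice of fish and is no test. Of all 1195 calls, 265 were shared with the 526 made without the 3 fish, and 146 of the rest were no longer tested. Single fish moved the count as well: it was 3 without A+2, 21 without A-2, 4 without A-3 and 1 without A-5. With the replicate number as a block it was 0. Of the 6 same-numbered pairs of A+ and A- fish, 4 correlated above 0.1 in their deviations and 2 matched best with their own number.

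Between Z+ and A+ fish, 0 of 74 list genes were higher and 21 lower with all fish in edgeR (56 with an unadjusted p under 0.05, 0 and 51 with DESeq2), beside 5.64% higher and 5.47% lower over all genes. Those 21 rest on the same chosen fish, and so does their loss when these fish are left out. Without A+1, A+2 and A+3, 2 of 46 were lower (tet3 and igf2bp3), beside 5.66% of all genes lower and 7.7% higher. Of the separated genes, 59 still passed the count filter, 0 were lower in edgeR and 3 were higher in Z+ than in A+ fish, beside 7.7% of all genes higher. The 3 were rrm2, aurkb and pclaf, all of DNA replication or cell division, by 2.96 ± 0.91, 2.40 ± 0.70 and 2.31 ± 0.73 on the log2 scale (SE, edgeR adjusted p = 0.037, 0.0288 and 0.04). Separated genes were chosen for low levels in A+4 to A+6, the only A+ fish left here. That choice favours such calls, so they are a description and no test. The 21 lower calls became 2 without A+2, 3 without Z+2 and 45 without Z+3, the Z+ fish that carried egg-cell transcripts, and lay between 8 and 13 without any 1 of A+1, A-1, A-5, Z-3, Z+1, Z+4, Z+5 or Z+6. Between Z- and A- fish, 0 of 74 list genes passed in edgeR (beside 0.458% of all genes higher and 0.746% lower), 1 had an unadjusted p under 0.05, and DESeq2 also called 0, with 10 at an unadjusted p under 0.05. Of these 12 fish, Z-5 and Z-3 were the ones that carried the transcripts. There buc differed by 2.85 ± 1.77 (SE, edgeR adjusted p = 0.502).

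**Figure D5:**
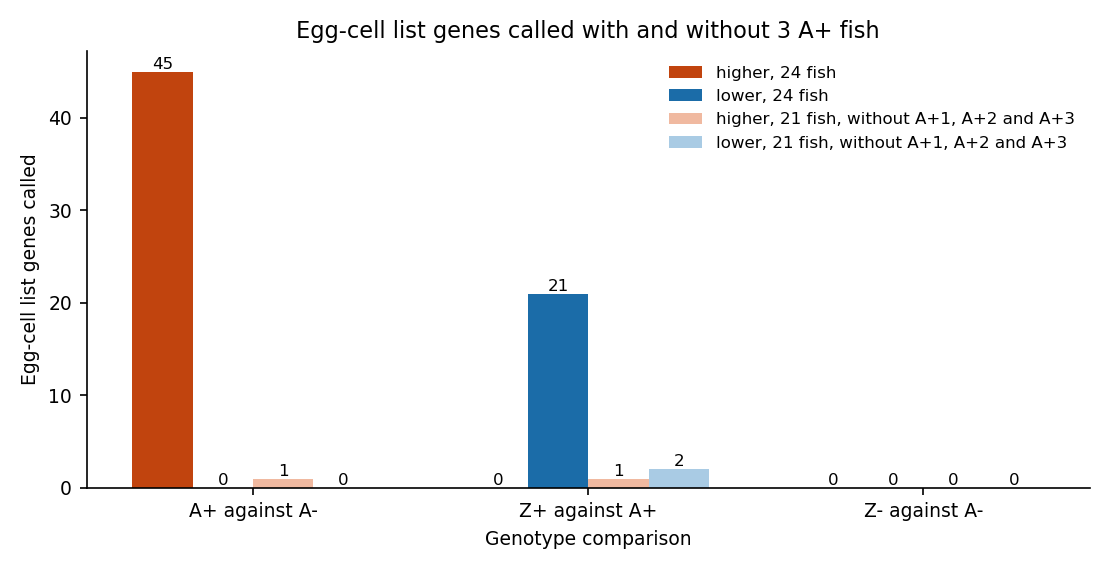
Number of egg-cell list genes called higher or lower by edgeR (vertical) in 3 genotype comparisons (horizontal), with all 24 fish (dark bars) and without A+1, A+2 and A+3 (pale bars). The calls number 1 without the 3 fish and 45 with them for A+ against A- (higher), and 2 and 21 for Z+ against A+ (lower), of 46 and 74 genes tested. The 3 fish were chosen by genes of this kind, so the fall follows from the choice.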

How the data were processed

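Liver RNA-seq libraries of 24 zebrafish, 1 per fish, were taken from the table of raw read counts per gene that the authors deposited. Per the labels and the methods, the authors sequenced the libraries over 2 runs. They mapped reads with STAR to GRCz11 with the AAT transgene added, and counted them with featureCounts. Of 28210 genes, 2304 had 0 counts in every fish. The fish left out as outliers in the study are not named in the sources used here, so all 24 were kept. P-values come from tests that set the difference between genotype means against the spread between fish.

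Levels are CPM with TMM-scaled library sizes (edgeR 4.0.16, R 4.3.3). Log2 differences used a prior count of 1. Genotypes were compared with edgeR's quasi-likelihood test over the 4 groups, on genes above 100 counts in at least 3 fish, with Benjamini-Hochberg adjustment at 0.05. DESeq2 1.42.0, other scalings and filters, a replicate block and single-fish removals were the alternatives. Named genes were the 4 markers, up to 5 of the largest differences in each of 7 lists, the 15 largest with a symbol, those nearest the 4-fold limit, those farthest from the median ratio, and the gene with the highest mean CPM of each other list. Further genes were named after their values were seen. The members and lists were chosen with earlier results of these data known. Statistics were run on simulated counts with less spread between fish than these data have, which checks the code and not the error rates here. Figures were drawn with matplotlib 3.10.9. Gene order was read from the RefSeq annotation of GRCz12tu by symbol, and no sequence is shown. The result of 1 list gene is not reported here.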

Additional observations from a re-analysis of the deposited data

Results flagged for a closer look

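In 38 of 88 sets of 6 fish of 1 genotype, a summed level or marker had 1 fish beyond Dixon's 95% limit, where chance gives about 1 in 20. Many of these are 1 fish counted several times, with 12 flags in A+2. The markers, the egg-cell lists and the 366 genes were chosen with these levels known. The rate of 1 in 20 therefore does not apply to them, and the flags are descriptions. A+2 stood above the other A+ fish in the egg coat list (6233 CPM, next fish 455), germ plasm list (1523 CPM), stored maternal RNA list (2581 CPM), oocyte transcription and growth factor list (273 CPM), meiosis list (1404 CPM) and maternal chromatin list (2978 CPM), in these 6 together (14991 CPM) and in the 366 separated genes (60208 CPM). The same fish stood apart in buc (439 CPM), zar1 (297 CPM), zp3b (889 CPM) and h1m (446 CPM).

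In Z+3, the separated genes summed to 1228 CPM, the egg coat list to 135 CPM and the oocyte transcription and growth factor list to 12.8 CPM, with buc at 10.2, zar1 at 8.44, zp3b at 24 and h1m at 18.4 CPM. In Z-5, the separated genes summed to 1858 CPM, the egg coat list to 198 CPM, the germ plasm list to 110 CPM and the oocyte transcription and growth factor list to 11.1 CPM, with buc at 14.6, zar1 at 9.30, zp3b at 27.5 and h1m at 16.5 CPM. In the oocyte transcription and growth factor list A-6 also stood apart, at 7.96 CPM, but most of this came from members not named above. In A-6, figla, lhx8a, gdf3, taf4b and bmp15 had 0.0353, 0, 0.0529, 0.0176 and 0.176 CPM, and buc had 0.141 CPM.

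Vitellogenin and oestrogen response genes summed to 832386 CPM in Z+5 and 873861 CPM in Z-2, and stored maternal RNA genes to 1797 CPM in Z-2. That last sum rests on the TMM factor of Z-2, 0.563, since its unscaled share, 0.101% of counts, was the lowest of the Z- fish. In Z-2, zar1, zar1l, cpeb1b, btg4, pabpc1l and elavl2 were each at 0 CPM. Exocrine pancreas genes summed to 35173 CPM in A+1 and 16995 CPM in A-6. Intestine genes summed to 5730.0 CPM in A+5 and 20197 CPM in A-6, whose hepatocyte genes summed to 86983 CPM. Cholesterol synthesis genes summed to 4751 CPM in A-4. The transgene stood at 7.72 CPM in Z-1, a fish without it. Levels of 6.52, 5.84, 4.77 and 2.80 CPM were counted in A-1, A-5, A-4 and A-2, which also lack it.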

How the results depend on the processing

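The scaling moved the balance of lower calls. The method, the scaling, the filter and the fish kept all moved the calls between genotypes. The causes were not tested. Genes at least 2-fold lower in A+1 to A+3 numbered 41 with TMM, 9 with library totals, 27 with DESeq2's size factors and 118 without a filter. Genes at least 4-fold lower numbered 0, and 1 with TMM over the 6 A+ fish (ppp1r3ca), 1 without a filter (jam2b) and 41 at a 2-fold limit. The 366 genes higher came to 169 with counts above 100 in at least 3 of the 24 fish, 617 at 2-fold and 226 at 8-fold. Leaving out 1 A+ fish gave 284 to 856 higher, 2 to 34 lower and 50 to 219 lower by 2-fold.

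List sums, as log2 differences of A+1 to A+3 minus A+4 to A+6, moved between ways of summing. For germ plasm the value was 2.14, and 4.2 from mean log2 CPM. For stored maternal RNA it was 0.54, and 1.05 with library totals, 3.85 from mean log2 CPM and 1.74 without the gene of highest CPM. For meiosis it was 1.09, and 2.85 and 3.98 by the last 2 ways. For maternal chromatin it was 0.43, and 2.77 and 1.88. For follicle cells it was 0.13, and 0.64 with library totals and 1.33 from mean log2 CPM. For testis it was -0.10, and turned to 0.42, 0.89 and 1.30. For intestine it was -1.72, and -2.65 without the gene of highest CPM.

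Calls for A+ against A- numbered 625 higher. They came to 1027 with DESeq2, 302 with library totals, 1514 without a filter, 987 with edgeR's own filter, 268 without A+1 to A+3, 1462 without A+4 to A+6 and 164 without A+1 to A+3, Z-3, Z-5 and Z+3, a removal chosen after the data were seen. The 570 lower came to 174 with library totals, 258 without A+1 to A+3 and 234 without those 6 fish. The 45 egg-list genes came to 83 without a filter, 1 without A+1 to A+3 and 1 without the 6 fish. Single-fish removals gave 138 to 831 higher, 250 to 708 lower and 1 to 46 egg-list genes.

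For Z+ against A+, the 666 higher came to 156 with library totals and 429 without A+4 to A+6. The 645 lower came to 1120 with DESeq2, 1428 without a filter, 1013 with edgeR's own filter, 1213 without A+4 to A+6 and 399 without the 6 fish. Egg-list genes higher numbered 0, and 1 without A+1 to A+3 or without the 6 fish. The 21 lower came to 51 with DESeq2, 43 without a filter, 34 with edgeR's own filter, 2 without A+1 to A+3, 54 without A+4 to A+6 and 1 without the 6 fish. Single-fish removals gave 266 to 1018 higher, 262 to 782 lower, 0 to 1 egg-list genes higher and 2 to 45 lower. For Z- against A-, the 54 higher came to 145 with DESeq2, 25 with library totals, 84 with edgeR's own filter and 34 without the 6 fish, and the 88 lower to 516, 142 and 38 by DESeq2, edgeR's own filter and that removal. Single-fish removals gave 31 to 80 higher and 39 to 151 lower.

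Fish of different genotypes share only a number: same-numbered fish correlated between -0.241 and 0.289 in their deviations, 4, 1 and 0 of 6 pairs did so above 0.1, and 2, 0 and 0 matched best with their own number in the 3 comparisons. With the replicate number as a block, calls came to 176 higher, 372 lower and 0 egg-list genes higher for A+ against A-, to 283 lower and 1 egg-list gene lower (igf2bp3) for Z+ against A+, and to 57 lower for Z- against A-. At 3 counts or fewer a level cannot be told from 0, which limits early meiosis and follicle genes.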

Other observations

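Outside the A+ fish, vitellogenin and oestrogen response genes took 5.2% of counts in A-1, 4.04% in A-2 and 1.52% in A-4, and 0.0103 to 0.0177% in the other 3 A- fish. Egg coat genes summed to 10.4 CPM in A-1, 5.39 CPM in A-2 and 18.9 CPM in A-4, and 1.01 to 3.95 CPM in the other 3. Vitellogenin and oestrogen response genes took 0.84% of counts in Z-5, 0.0784% in Z-3 and 0.00609% in Z+3, whose egg coat genes summed to 198, 40.9 and 135 CPM.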
